A study of Aquarana catesbeiana with 18 samples.

Results

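Whether an albino American bullfrog (Aquarana catesbeiana) differs from a wild-type one in the same way in its skin as in its liver was asked gene by gene. RNA sequencing libraries of back skin and of liver were compared, 3 from albino and 3 from wild-type frogs in each tissue, which makes 12 of the 18 libraries of the series; the other 6 are eyes and are not described. The 4 groups are albino skin, wild-type skin, albino liver and wild-type liver, and the labels give tissue and genotype for each, with no age, treatment or causal gene for the albino state. For each gene the albino minus wild-type log2 difference was taken in skin (the skin difference) and in liver (the liver difference), and their difference, skin minus liver, is called the interaction. A positive interaction means that albino minus wild-type was higher in skin than in liver, a negative one that it was higher in liver.

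Albinism is the loss of melanin, the pigment that skin melanophores make from tyrosine with the enzyme tyrosinase inside melanosomes. Liver makes plasma proteins, lipoproteins and bile, stores retinol (vitamin A) and clears steroids, and in frogs it also holds pigmented macrophages. A gene whose albino to wild-type ratio is the same in both tissues has an interaction of 0, whatever its level. Genes that follow the genotype equally in both tissues therefore drop out. Those that differ in 1 tissue, by unequal amounts, or in opposite directions remain.

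The tissue labels fit the markers. The summed level of 24 epidermis and keratinocyte genes, in counts per 1e+06 counts (CPM) over library sizes scaled by trimmed means (TMM), was 3817 to 6743 CPM in albino skin and 4277 to 6287 CPM in wild-type skin, against 258 to 289 CPM in albino liver and 231 to 285 CPM in wild-type liver. Tested hepatocyte markers summed to 204317 to 321221 CPM in albino liver and 188556 to 217924 CPM in wild-type liver, against 76.8 to 97.0 CPM in albino skin and 198 to 326 CPM in wild-type skin. Total counts, in units of 1e+06, were 35.7 to 36.8 per skin library and 38.3 to 39.2 per liver library. Nothing in the labels ties a replicate to an animal of its own, so p-values measure the spread between these libraries only. Over 37 genes that are fully on in some of the 12 libraries and off in others, the library labelled wild-type liver 3 had the same states as wild-type liver 2 and wild-type skin 2 for 100% of genes, and as wild-type skin 3 for 59.5%. The other 5 pairs of skin and liver libraries with the same genotype and number shared 97.3% to 100% of states. The counts of wild-type liver 2 and 3 differed by more than sampling noise, with a chi-square of 38.0 per degree of freedom, but by less than the other pairs of a group, which had 133 to 234. Whether wild-type liver 2 and 3 come from 1 frog was not tested. If they do, wild-type liver holds 2 animals, and its SDs at n = 3 and the liver and interaction p-values overstate the replication.

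Genotype by tissue interaction was called for 49 of 18153 tested genes (0.270%), 20 with a positive interaction (0.110%) and 29 with a negative one (0.160%), by edgeR's quasi-likelihood test with Benjamini-Hochberg adjustment over all tested genes at 0.05. By the calls within each tissue, most of these genes differed in liver. Of the 49, 37 were called in liver and not in skin, 9 in skin and not in liver, and 3 in both. A missing call does not show that a difference is absent. The skin and liver differences had opposite signs in 35 of the 49. In liver 516 genes were called on their own (2.84%), 242 higher (1.33%) and 274 lower (1.51%) in albino frogs, and in skin 202 (1.11%), 104 higher (0.573%) and 98 lower (0.540%). With library totals in place of TMM scaling the liver split was 123 higher and 336 lower. Among the 49 the median size of the liver difference was 2.64 and that of the skin difference 0.60 on the log2 scale, against 0.38 and 0.36 over all tested genes. Albino and wild-type libraries did not overlap for 47 of the 49 in liver and for 26 in skin, beside 25.6% and 19.1% of all tested genes. The 49 genes were picked by a test on these same libraries, so their sizes, signs and lack of overlap are no separate support. The SE, given after ± for log2 differences, is the size of the difference divided by the square root of its F value in the quasi-likelihood test. The median SE of an interaction over all tested genes was 0.54 on the log2 scale. In bulk tissue fewer cells of a type and less RNA per cell cannot be told apart.

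The number of called interactions depended on single libraries. It was 10 without wild-type liver 2, 15 without the library labelled wild-type liver 3, 15 with these 2 libraries summed into 1, 15 without albino skin 3, 16 without albino liver 3, 25 without albino liver 2, 32 without albino skin 2 and 78 without wild-type liver 1. DESeq2 called 367 interactions, among them all of the 49, while limma on log2 FPKM with 0.1 added called 155, 91 positive and 64 negative, and kept 34 of the 49. Liver calls numbered 103 without wild-type liver 2, 155 without the library labelled wild-type liver 3, 171 without albino liver 2 and 181 without albino liver 3. Skin calls numbered 47 without albino skin 3, 78 without albino skin 2, 79 without wild-type skin 2 and 86 without albino skin 1. They numbered 57 without the library labelled wild-type liver 3, 72 without wild-type liver 2 and 79 without albino liver 2. Without albino liver 3 there were 85, and without albino liver 1 there were 109. All 4 groups share 1 estimate of the spread per gene, so liver libraries also enter the skin test. The cause of these falls was not tested.

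The interaction call was kept without each library in turn, and also with wild-type liver 2 and 3 summed, for 9 genes: PRRT3, INHBA, LRAT, CSRP2, PDE6C, the fatty acid desaturase 2-like gene LOC141112132, the angiopoietin-related protein 3-like gene LOC141147649, the TRPM8 channel-associated factor homolog LOC141131687 and the uncharacterized LOC141144176. With the replicate number as a block and the library labelled wild-type liver 3 left out, an alternative chosen after the data were seen, PRRT3, INHBA, LRAT, CSRP2 and LOC141112132 kept the call and the other 4 lost it. Among the rest of the 49, 40 lost their call without at least 1 library, and none of the 49 changed sign when any 1 of the 12 libraries was left out.

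**Figure D1:**
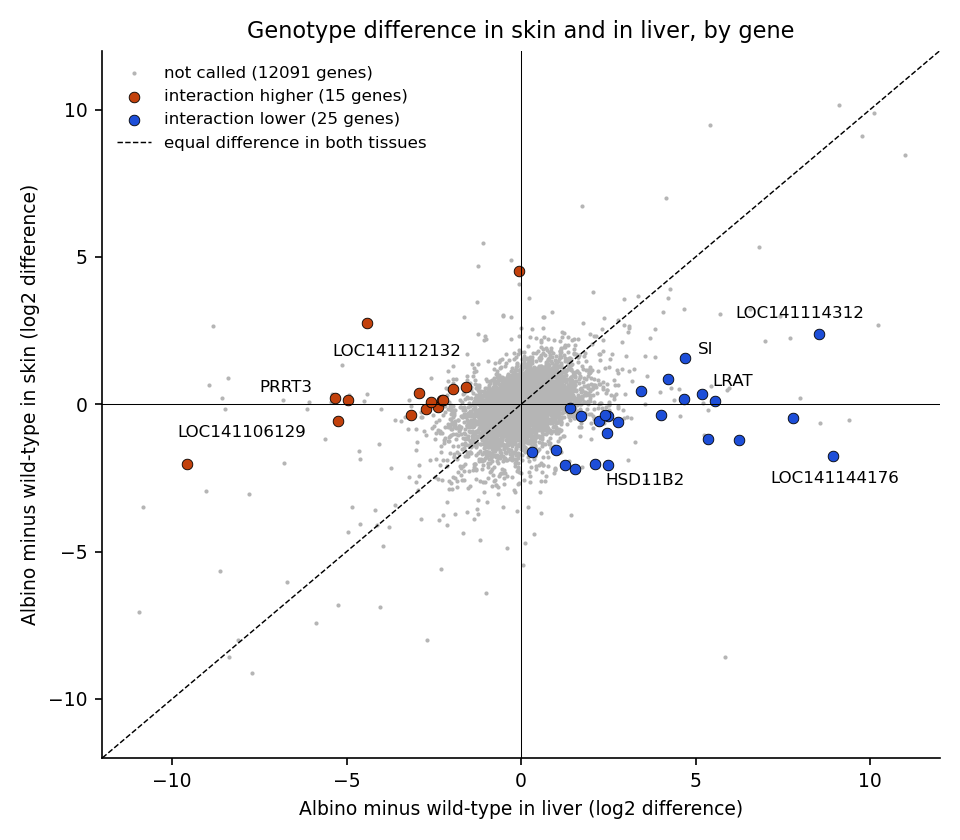
Albino minus wild-type log2 difference in skin (vertical axis) against that in liver (horizontal axis) for the 12131 genes whose higher genotype averaged 1 CPM or more in each tissue. Points are genes, red for the 15 with a positive and blue for the 25 with a negative called interaction, and most coloured points lie near the horizontal line of 0 skin difference and far from the dashed line of equal differences.

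Although few interactions were called, the genotype differences of skin and liver leaned the same way. Of 12131 genes at 1 CPM or more in each tissue, 185 were called higher in albino liver, and 139 of these (75.1%) had a positive skin difference, with a median of 0.33. Another 229 were called lower in albino liver, of which 184 (80.3%) had a negative skin difference, with a median of -0.43. Read the other way, 55 of 65 genes called higher in albino skin (84.6%) had a positive liver difference, with a median of 0.75, and 64 of 72 genes called lower in albino skin (88.9%) had a negative one, with a median of -0.91. Genes not called in liver had a median skin difference of -0.01. Across the 12131 genes the skin and liver differences had a Pearson correlation of 0.45 and a Spearman correlation of 0.41, a description only, since genes are not independent and skin and liver libraries may come from the same frogs. Taking both directions together, 78.0% of 414 liver calls had the same sign in skin, and 76.2% of 126 without the library labelled wild-type liver 3. For skin calls the share with the same sign in liver was 86.9% of 137, and 92.1% of 38 without that library. The plot of skin differences by liver call shows the 2 groups of called genes shifted to opposite sides of 0.

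**Figure D2:**
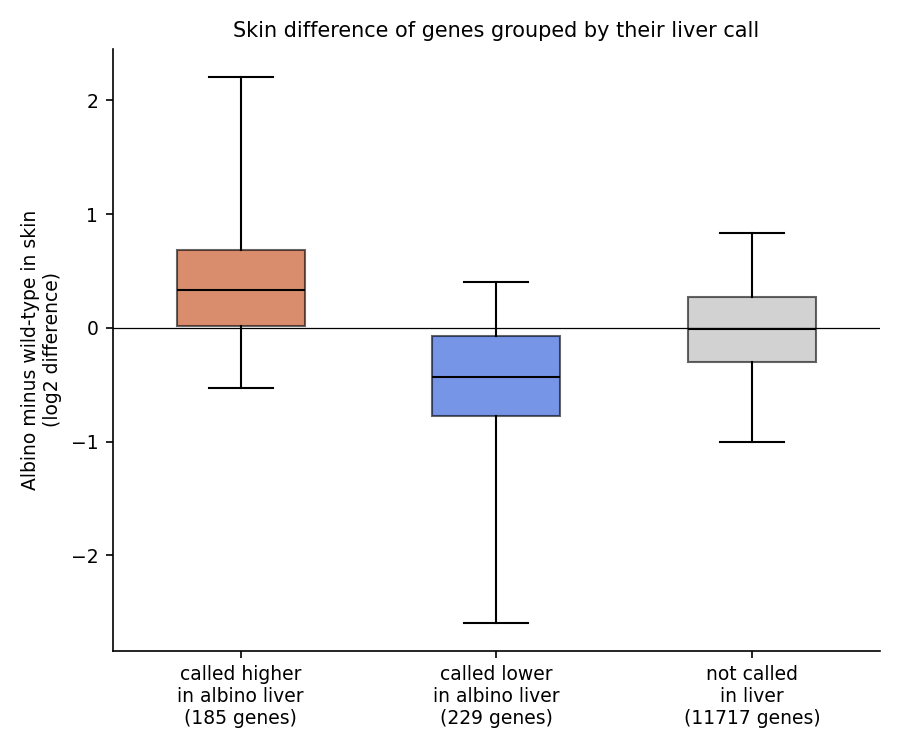
Albino minus wild-type log2 difference in skin for genes grouped by their call in liver (185 higher, 229 lower, 11717 not called). Boxes span the quartiles over genes, the line is the median and whiskers reach the 5th and 95th percentiles; the median is 0.33 for genes called higher and -0.43 for genes called lower in albino liver.

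Genes called in the same direction in both tissues numbered 49, 21 higher and 28 lower, and only HSD11B2 was called in opposite directions. The gene related to myelin regulatory factor, MYRFL, is the extreme case: it had 8.80, 8.87 and 9.08 CPM in albino skin against 0, 0 and 0.0227 CPM in wild-type skin, and 16.2, 15.5 and 17.2 CPM in albino liver against 0.0349, 0 and 0 CPM in wild-type liver. With 1 count in each wild-type tissue its ratio was 1439 in skin (95% counting interval 258 to 56884) and 1429 in liver (256 to 56474). Both ratios rest on that 1 count, so their likeness carries no weight. The uncharacterized gene LOC141116617 had the reverse direction, with 0.967, 0.487 and 0.384 CPM in albino skin against 12.5, 13.5 and 10.6 CPM in wild-type skin, and 0.308, 0.237 and 0.935 CPM in albino liver against 14.9, 13.6 and 18.9 CPM in wild-type liver. Its libraries did not overlap in either tissue, and its interaction of 0.64 ± 0.62 was not called (edgeR, adjusted p = 0.855).

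Sucrase-isomaltase and a keratin were called higher in albino frogs in both tissues and still had a called interaction, with the larger difference in liver. SI, a disaccharidase of the intestinal brush border, had 16.6, 34.1 and 27.1 CPM in albino skin against 8.64, 10.3 and 7.00 CPM in wild-type skin. In liver it had 210.4, 219.6 and 134 CPM in albino against 6.95, 8.48 and 6.21 CPM in wild-type libraries. Albino and wild-type libraries did not overlap in either tissue, and the skin difference was 1.58 ± 0.29, the liver difference 4.70 ± 0.33 and the interaction -3.12 ± 0.41 (edgeR, adjusted p = 0.0116). The type I keratin 19-like gene LOC141114312 had 10.1, 15.6 and 8.38 CPM in albino skin against 2.74, 3.04 and 0.773 CPM in wild-type skin, a difference of 2.38 ± 0.47. In albino liver it had 4.66, 5.55 and 6.04 CPM against 1 count over the wild-type liver libraries, a 472-fold ratio (counting interval 84.2 to 18682).

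Fatty acid desaturase genes fell in albino liver and had no call in skin. The acyl-CoA desaturase-like gene LOC141106129, of the family that puts the first double bond into saturated fatty acids, had 27.6, 7.54 and 16.2 CPM in albino liver against 631, 695 and 615 CPM in wild-type liver. In skin it had 16.3, 24.1 and 27.1 CPM in albino against 20.2, 54.8 and 24.1 CPM in wild-type libraries, which overlap. The liver difference of -5.24 ± 0.55 against a skin difference of -0.55 ± 0.46 gave an interaction of 4.69 ± 0.68 (edgeR, adjusted p = 0.0225). The fatty acid desaturase 2-like gene LOC141112132, of the family that makes polyunsaturated fatty acids, had 13.8, 19.1 and 12.7 CPM in albino liver against 96.8, 133 and 113 CPM in wild-type liver. Its skin libraries, 1.96, 2.37 and 1.57 CPM in albino and 1.51, 1.10 and 1.95 CPM in wild-type frogs, overlapped, and the interaction was 3.28 ± 0.36 (edgeR, adjusted p = 0.00583), kept without each library in turn. The next desaturase, the acyl-CoA (8-3)-desaturase-like gene LOC141112134, chosen after its values were seen, averaged 32.4 ± 26.3 CPM in albino liver and 195 ± 24.3 CPM in wild-type liver (SD, n = 3 each). Its liver difference of -2.59 ± 0.50 was called, and its interaction of 3.46 ± 0.69 was not (edgeR, adjusted p = 0.0771). How reads that match several genes were counted is not given, so values of single desaturase copies, and of other genes named as like another, are uncertain.

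A few other genes of fat handling, most of them chosen after their values were seen, also fell in albino liver. The patatin-like phospholipase 2 gene LOC141132936, of the family of the lipase that starts the breakdown of stored triglyceride, had 6.66, 13.0 and 8.18 CPM in albino liver against 42.0, 36.6 and 30.0 CPM in wild-type liver. Its skin libraries, 2.26, 2.48 and 3.28 CPM in albino and 2.12, 1.69 and 1.80 CPM in wild-type frogs, did not overlap and were higher in albino frogs without a call, and the interaction was 2.48 ± 0.37 (edgeR, adjusted p = 0.0232). PPARG, a nuclear receptor that drives fat storage, had a called liver difference of -1.95 ± 0.33 beside a skin difference of -0.23 ± 0.33 that was not called, and its interaction of 1.72 ± 0.46 was not called (edgeR, adjusted p = 0.202). Lipoprotein lipase (LPL) likewise had a called liver difference of -1.55 ± 0.35, a skin difference of 0.94 ± 0.34 and an interaction of 2.49 ± 0.49 that was not called (edgeR, adjusted p = 0.0724). Perilipin 2 (PLIN2), a coat protein of lipid droplets chosen after its values were seen, differed by -2.45 ± 0.56 in liver, which was called, and by -0.12 ± 0.53 in skin.

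In the files' pathway annotation 3 of 70 tested genes of PPAR signaling had a positive called interaction and none a negative one, beside 0.110% and 0.160% of all tested genes, and 2 of 35 of unsaturated fatty acid biosynthesis had a positive one. The called PPAR genes were both desaturases and the fatty acid transporter SLC27A2, described below with the genes called in skin. Over all members of PPAR signaling the median interaction was -0.16 with the sign opposite to that of its called genes. These groups were picked out after their counts were seen. The list of cholesterol and fatty acid synthesis leaned the other way in liver, with 16 of 25 tested members positive and a median liver difference of 0.30. Called in liver were 1 higher (INSIG1, which holds back sterol synthesis) and none lower, beside 1.33% and 1.51% of all tested genes. The list of fatty acid oxidation and PPAR targets had 24 tested members, none with a called interaction, beside 0.270% of all tested genes. Its medians were -0.37 in skin, -0.39 in liver and -0.32 for the interaction. In liver 1 member was called higher and 4 lower, beside 1.33% and 1.51% of all tested genes. In skin none was called higher and 1 lower, beside 0.573% and 0.540%. In that list pyruvate dehydrogenase kinase 4 (PDK4), which holds back glucose oxidation, fell in albino skin by 2.81 on the log2 scale and had a liver difference of -0.65 ± 0.47, with no called interaction (edgeR, adjusted p = 0.290).

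**Figure D3:**
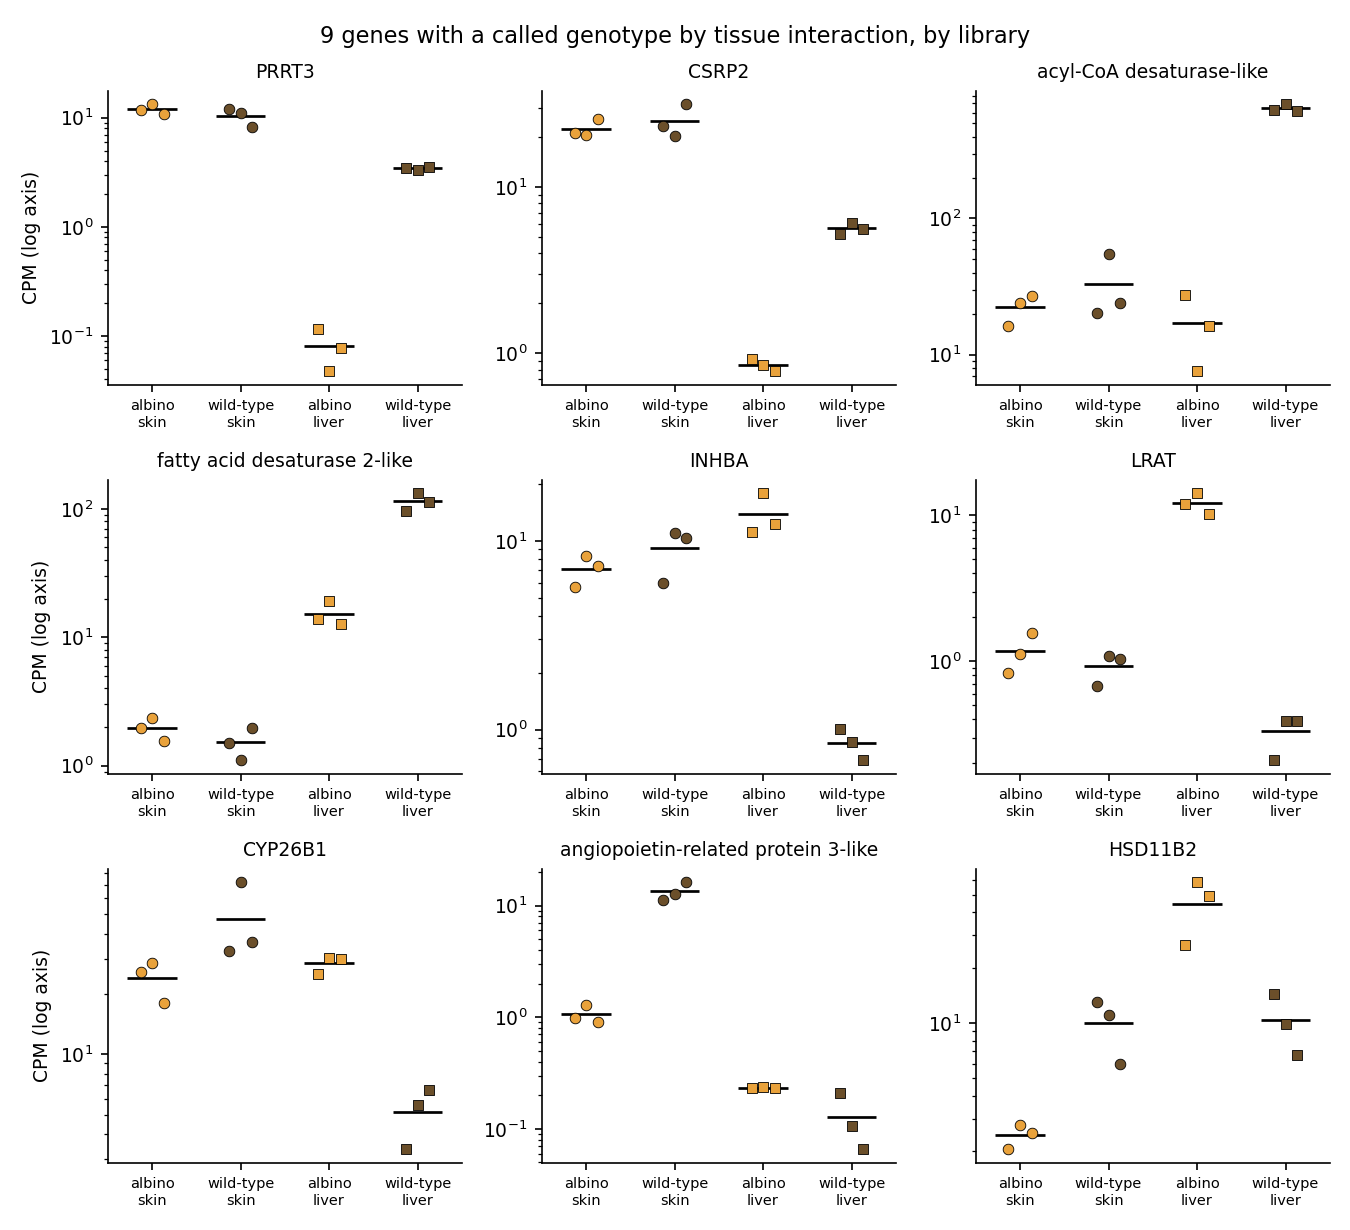
CPM on a log axis of 9 genes with a called interaction, by library, in albino skin, wild-type skin, albino liver and wild-type liver. Points are the 3 libraries of a group, circles for skin and squares for liver, and lines are group means; in HSD11B2 the albino libraries lie below wild-type in skin and above it in liver.

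Among genes of retinoid handling, 2 rose in albino liver. LRAT, which joins retinol to a fatty acid for storage, had 12.0, 14.3 and 10.2 CPM in albino liver against 0.209, 0.392 and 0.392 CPM in wild-type liver, libraries that lie far apart. In skin it had 0.829, 1.12 and 1.57 CPM in albino against 0.672, 1.08 and 1.05 CPM in wild-type libraries, which overlap. The interaction was -4.85 ± 0.49 (edgeR, adjusted p = 0.00339) and was kept without each library. CYP26B1, which breaks down retinoic acid, had 25.1, 30.0 and 30.0 CPM in albino liver against 3.35, 5.56 and 6.60 CPM in wild-type liver. In skin the albino libraries were the lower ones, with 25.6, 28.6 and 18.1 CPM against 32.8, 72.4 and 36.4 CPM in wild-type skin, and although they did not overlap, the skin difference of -0.97 ± 0.33 was not called. Its liver difference was 2.46 ± 0.35 and its interaction -3.43 ± 0.48 (edgeR, adjusted p = 0.0164). These are the 2 called members of the 50 tested genes of retinol metabolism, both negative beside 0.160% of all tested genes, a group picked out after its count was seen, with a median interaction of -0.04. RBP4, the plasma carrier of retinol, fell in albino skin to 20.4, 26.7 and 37.0 CPM against 102, 174 and 247 CPM in wild-type skin, a called difference of -2.63 ± 0.38. In liver it had 7369, 6982 and 5377 CPM in albino and 12705, 15503 and 13479 CPM in wild-type libraries, a difference of -1.08 ± 0.36 that was not called, and neither was the interaction of -1.56 ± 0.51 (edgeR, adjusted p = 0.306).

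Among genes of transforming growth factor signalling, 2 rose and 1 fell in albino liver with a called interaction. INHBA, the subunit that forms activin A, had 11.2, 18.0 and 12.4 CPM in albino liver against 1.01, 0.855 and 0.686 CPM in wild-type liver, a difference of 4.02 ± 0.33. In skin it had 5.67, 8.28 and 7.35 CPM in albino and 5.97, 11.0 and 10.4 CPM in wild-type libraries, which overlap, and the interaction was -4.38 ± 0.42 (edgeR, adjusted p = 0.00328). BMPR2, the type 2 receptor for bone morphogenetic proteins, went the other way, with 23.7, 23.6 and 13.8 CPM in albino liver against 69.0, 126 and 98.2 CPM in wild-type liver. Its skin libraries overlapped at 18.0, 25.0 and 21.6 CPM in albino and 18.7, 23.1 and 17.0 CPM in wild-type frogs, and the interaction was 2.40 ± 0.39 (edgeR, adjusted p = 0.0323). THSD4, a microfibril-associated protein, rose in albino liver by 1.42 ± 0.20 and had a skin difference of -0.12 ± 0.18. These 3 are the called members of 102 tested genes of the TGF-beta pathway, 1 with a positive and 2 with a negative interaction, beside 0.110% and 0.160% of all tested genes, and this group too was picked out after its count was seen.

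Of matrix genes, fibrillin 2 (FBN2), a microfibril protein, fell in albino skin to 5.04, 9.64 and 3.47 CPM, against 22.8, 35.6 and 17.7 CPM in wild-type skin. In liver its albino libraries were higher, at 6.89, 5.40 and 6.16 CPM against 3.63, 1.96 and 2.19 CPM in wild-type liver, a difference of 1.25 ± 0.40 that was not called, and the interaction was -3.31 ± 0.56 (edgeR, adjusted p = 0.0351). Laminin alpha 1 (LAMA1), a basement membrane protein, had 6.04, 5.78 and 8.61 CPM in albino liver against 2.09, 1.71 and 2.35 CPM in wild-type liver. Its skin libraries were lower in albino frogs, at 4.51, 4.99 and 5.01 CPM against 6.63, 6.14 and 6.43 CPM in wild-type skin, without a call. In the extracellular matrix list FBN2 alone had a called interaction, a negative one, beside 0.160% of all tested genes. The list had 41 tested members, of which 33 had a negative interaction, beside 51.3% of all tested genes. Its median was 0.05 in skin, 0.58 in liver and -0.50 for the interaction, beside -0.02 for the interaction of all tested genes. The last value lay between -1.01 and -0.20 over the alternatives, reaching -1.01 without albino skin 2. Collagen XII (COL12A1), for example, had a liver difference of 1.06 ± 0.29 and a skin difference of -0.22 ± 0.28, neither of them called.

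Enzymes that act on steroids were among the called genes. HSD11B2, which inactivates glucocorticoids, fell in albino skin to 2.05, 2.79 and 2.51 CPM, against 12.9, 11.0 and 5.98 CPM in wild-type skin. In liver it rose to 26.5, 58.6 and 48.9 CPM in albino libraries, against 14.4, 9.83 and 6.73 CPM in wild-type libraries. Neither tissue's libraries overlapped, the skin difference was -2.02 ± 0.38, the liver difference 2.11 ± 0.38 and the interaction -4.14 ± 0.54 (edgeR, adjusted p = 0.0107). The sulfotransferase 2B1-like gene LOC141110916, of the family that sulfates cholesterol, had 0.192, 0.142 and 0.0779 CPM in albino liver against 0.733, 3.92 and 4.28 CPM in wild-type liver, a called difference. In skin the direction was opposite and not called, with 1.34, 2.64 and 0.559 CPM in albino against 0.131, 0.178 and 0.364 CPM in wild-type libraries, and the interaction was 7.16 ± 1.14 (edgeR, adjusted p = 0.0322). The aldo-keto reductase 1C3-like gene LOC141132848 had 3.62, 2.99 and 9.35 CPM in albino liver against 0.105, 0.142 and 0.131 CPM in wild-type liver, while its skin libraries overlapped at 18.8, 4.99 and 19.5 CPM in albino and 25.1, 16.0 and 56.5 CPM in wild-type frogs. The corticosteroid and circadian list, with 22 tested members, had no called interaction, beside 0.270% of all tested genes, and a median of 0.11.

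A few genes typical of liver, 4 in number, rose in albino skin at low levels with no call in liver. APOC2, the apolipoprotein that activates lipoprotein lipase, had 0.714, 0.554 and 0.367 CPM in albino skin against 0.0656, 0.0178 and 0 CPM in wild-type skin. In liver it had 1154, 986 and 573 CPM in albino and 1208, 1572 and 1449.5 CPM in wild-type libraries. The skin libraries did not overlap, and the interaction was 4.66 ± 0.74 (edgeR, adjusted p = 0.0322). APOH, a plasma glycoprotein that binds phospholipid, had 0.368, 0.520 and 0.506 CPM in albino skin against 0, 0.0533 and 0.0227 CPM in wild-type skin, and an interaction of 4.24 ± 0.68 (edgeR, adjusted p = 0.0323). SLC27A2, which imports and activates long fatty acids, had 0.530, 0.672 and 0.209 CPM in albino skin against 0.0164, 0.0710 and 0.0682 CPM in wild-type skin. The complement factor B-like gene LOC141107597, of the alternative complement pathway, was the highest of the 4 in skin, with 3.66, 8.03 and 7.12 CPM in albino against 0.0656, 0.586 and 0.159 CPM in wild-type libraries. Its liver difference was -0.05 ± 0.51, its skin difference 4.51 ± 0.62 and its interaction 4.57 ± 0.79 (edgeR, adjusted p = 0.0425).

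Several of the most abundant liver genes were near 0 in every skin library. Fibrinogen beta (FGB) had 7 counts over the albino and 2 over the wild-type skin libraries, against averages of 24643 ± 5357 CPM in albino liver and 10991 ± 2899.6 CPM in wild-type liver (SD, n = 3 each). Fibrinogen gamma (FGG) had 7 counts over the albino and 1 over the wild-type skin libraries, apolipoprotein B (APOB) 3 and 0, CPS1 of the urea cycle 21 and 11, and TDO2, which starts tryptophan breakdown, 0 in all 6 skin libraries. Albumin (LOC141108620), the most abundant of them in liver, averaged 0.356 ± 0.334 CPM in albino skin and 0.183 ± 0.105 CPM in wild-type skin. Skin counts of FGB, FGG, APOB and CPS1 and the skin mean of albumin were each higher in albino frogs. The source of these low skin levels was not tested. Of all 27 tested hepatocyte markers only 12 had a positive skin difference, and the list median in skin was 0.0. In skin 1 was called higher (APOH) and 1 lower (RBP4), beside 0.573% and 0.540% of all tested genes. Without RBP4 the list summed to 55.3 to 70.3 CPM in albino skin and 51.8 to 95.6 CPM in wild-type skin, which overlap. Between 6 and 11 of the 27 were at 0 in each skin library.

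**Figure D4:**
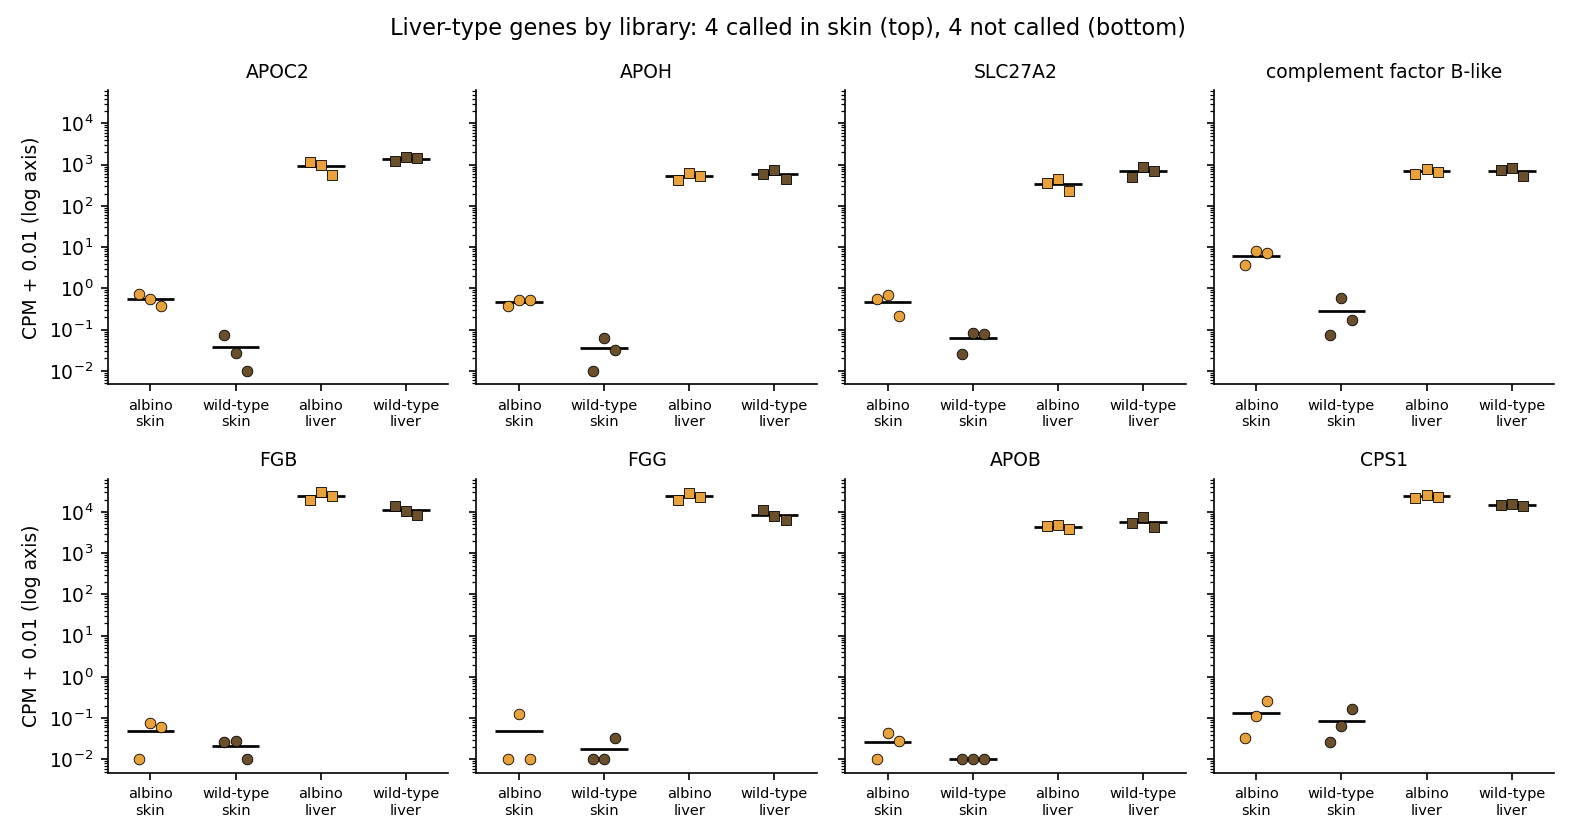
CPM with 0.01 added, on a log axis shared by all panels, of 8 liver-type genes by library in albino skin, wild-type skin, albino liver and wild-type liver. Points are libraries and lines group means; APOC2, APOH, SLC27A2 and the complement factor B-like gene (top) are higher in all 3 albino than in all 3 wild-type skin libraries, while FGB, FGG, APOB and CPS1 (bottom) overlap near 0 in skin.

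Other genes fell in albino skin with no call in liver. The angiopoietin-related protein 3-like gene LOC141147649, of a family of secreted regulators of lipoprotein lipase, had 0.990, 1.29 and 0.908 CPM in albino skin against 11.2, 12.7 and 16.3 CPM in wild-type skin. In liver it was low, at 0.231, 0.237 and 0.234 CPM in albino and 0.209, 0.107 and 0.0653 CPM in wild-type libraries, and the interaction was -4.52 ± 0.53 (edgeR, adjusted p = 0.00629). It is the only gene called in skin but not in liver that kept its interaction call without each library. The solute carrier 22 member 4-like gene LOC141132375, of the organic cation transporter family, had 7.00, 9.17 and 7.09 CPM in albino skin against 21.3, 29.4 and 20.3 CPM in wild-type skin, and a liver difference of 0.31 ± 0.19. Guanine deaminase (GDA), of purine breakdown, had 0.507, 0.319 and 0.140 CPM in albino skin against 1.10, 1.58 and 1.73 CPM in wild-type skin, and in liver the albino libraries were the higher ones, at 22.7, 20.4 and 35.7 CPM against 13.3, 7.66 and 5.91 CPM in wild-type liver. HHIP, which binds and restrains hedgehog ligands, had the same pattern, with a skin difference of -1.56 ± 0.30 that was called and a liver difference of 1.00 ± 0.29 that was not. With FBN2 these are the 5 genes with a negative interaction that were called in skin only.

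Among genes that fell in albino liver and overlapped in skin, PRRT3, a proline-rich transmembrane protein, had the smallest p of all tested genes. It had 0.115, 0.0474 and 0.0779 CPM in albino liver against 3.46, 3.35 and 3.56 CPM in wild-type liver. In skin it had 11.7, 13.4 and 10.9 CPM in albino and 11.9, 11.0 and 8.23 CPM in wild-type libraries, and the interaction was 5.55 ± 0.38 (edgeR, adjusted p = 0.000169). CSRP2, a LIM-domain protein of smooth muscle and stellate cells, had 0.924, 0.853 and 0.779 CPM in albino liver against 5.27, 6.09 and 5.65 CPM in wild-type liver and a skin difference of -0.16 ± 0.19. MKNK1, a kinase of the translation factor eIF4E, had 7.31, 9.29 and 10.4 CPM in albino liver against 49.1, 44.1 and 47.3 CPM in wild-type liver and a skin difference of -0.08 ± 0.24. Liver libraries of these 3 genes did not overlap between genotypes, and skin libraries did. DAAM1, a formin of Wnt signalling, differed by -2.23 ± 0.29 in liver and 0.16 ± 0.27 in skin. The interleukin-20 receptor alpha-like gene LOC141140313 differed by -2.58 ± 0.29 in liver and 0.08 ± 0.27 in skin. The transmembrane protein gene TMEM72 differed by -4.95 ± 0.69 in liver, with only 4 counts over the albino liver libraries, and by 0.14 ± 0.47 in skin.

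Further genes fell in albino liver while the skin libraries were apart without a call. PDE6C, the catalytic subunit of the cone phosphodiesterase, had 5.62, 10.9 and 7.33 CPM in albino liver against 37.1, 54.1 and 57.2 CPM in wild-type liver. In skin it was low and higher in albino frogs, at 0.507, 0.369 and 0.297 CPM against 0.0656, 0.142 and 0.136 CPM in wild-type skin, and the interaction was 4.39 ± 0.50 (edgeR, adjusted p = 0.00583). SLC26A5, an anion transporter family member known as prestin, differed by -1.59 ± 0.23 in liver and by 0.59 ± 0.23 in skin. EPS8L1, an actin regulator, differed by -3.15 ± 0.38 in liver and by -0.36 ± 0.27 in skin, and its interaction of 2.79 ± 0.47 turned to -0.20 by limma on log2 FPKM with 1 added. The cytochrome P450 2C8-like gene LOC141107696 had 58.3, 70.7 and 53.8 CPM in albino liver against 189.9, 365 and 249 CPM in wild-type liver, beside 11 counts over the albino and 1 over the wild-type skin libraries. The uncharacterized gene LOC141116717 had 0 counts over the albino liver libraries against 208 over the wild-type ones, at least 57.8-fold lower when 3 counts are set as the group's floor. In skin it stood at 0.714, 0.974 and 1.20 CPM in albino and 2.99, 6.14 and 2.82 CPM in wild-type libraries, lower in the same direction without a call.

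Genes that rose in albino liver with no skin call included signalling and cytoskeletal proteins. PTPRR, a receptor-type tyrosine phosphatase of MAP kinases, had 13.2, 13.8 and 8.85 CPM in albino liver against 1.01, 1.10 and 1.18 CPM in wild-type liver and a skin difference of 0.46 ± 0.26. P2RY6, a receptor for extracellular UDP, had 15.7, 23.2 and 20.1 CPM in albino liver against 4.22, 3.70 and 2.61 CPM in wild-type liver and a skin difference of -0.39 ± 0.27. GAS2L1, which links actin to microtubules, had 2.00, 4.60 and 2.38 CPM in albino liver against 0.0698, 0.0712 and 0.196 CPM in wild-type liver, while its skin libraries overlapped around a much higher level. The albino libraries of these 3 genes all lie above the wild-type ones in liver. The chemokine CXCL14 had 41.0, 46.2 and 43.8 CPM in albino liver against 10.9, 6.80 and 7.19 CPM in wild-type liver, and 109, 47.9 and 53.1 CPM in albino skin against 65.7, 113 and 91.1 CPM in wild-type skin, which overlap. TMEM63C, of a family of mechanosensitive channels, differed by 2.76 ± 0.40 in liver and by -0.60 ± 0.31 in skin. The TRPM8 channel-associated factor homolog LOC141131687 differed by 2.22 ± 0.26 in liver and by -0.57 ± 0.24 in skin. Skin libraries of TMEM63C and LOC141131687 did not overlap and were lower in albino frogs, without a call. FAM163B, a membrane protein of little known function, differed by 5.55 ± 0.77 in liver, with only 7 counts over the wild-type liver libraries, and by 0.11 ± 0.57 in skin.

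A further set was at or near 0 in wild-type liver. CACNB1, an auxiliary subunit of voltage-gated calcium channels, had 43 counts over the albino and 0 over the wild-type liver libraries, at least 17.2-fold higher when 3 counts are set as the group's floor, and a skin difference of 0.62 ± 0.39. DNAH10, a dynein heavy chain of cilia, had 3.77, 79.0 and 33.5 CPM in albino liver, a wide spread, against 1 count over the wild-type liver libraries, and its skin libraries overlapped below 1 CPM. The fucolectin-like gene LOC141144076 had 44.2, 19.3 and 9.04 CPM in albino liver against 2 counts over the wild-type liver libraries, and was at or near 0 in skin. The uncharacterized gene LOC141144176 had 8.24, 35.8 and 11.1 CPM in albino liver against 0.0349, 0.0356 and 0.0327 CPM in wild-type liver. In skin its level was far higher and lower in albino frogs, at 212, 62.3 and 79.4 CPM against 224, 252 and 713 CPM in wild-type skin, without a call.

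Genes of secreted protein families also rose in albino liver, some with a wide spread between its libraries. The alpha-1-antitrypsin-like gene LOC141117350 had 7.97, 89.7 and 20.7 CPM in albino liver against 1.01, 0.392 and 0.163 CPM in wild-type liver. The carboxypeptidase inhibitor SmCI-like gene LOC141145729 had 36.7, 170.4 and 146 CPM in albino liver against 0.175, 1.35 and 0.0653 CPM in wild-type liver. The vitelline membrane outer layer 1-like gene LOC141133562 had 73.9, 80.7 and 45.0 CPM in albino liver against 9.98, 14.7 and 10.7 CPM in wild-type liver, and in skin it was more abundant and overlapped, at 307, 132 and 104 CPM in albino and 859.9, 267 and 1132 CPM in wild-type libraries. Liver libraries of all 3 genes did not overlap between genotypes, and none of the 3 was called in skin. Skin libraries of LOC141117350 did not overlap either and went the other way, at 42.6, 27.4 and 51.4 CPM in albino against 119, 76.0 and 84.2 CPM in wild-type frogs. Those of LOC141145729 overlapped. The heme-binding protein 2-like gene LOC141140610 had 18.6, 31.1 and 51.9 CPM in albino liver against 2.06, 1.67 and 1.73 CPM in wild-type liver and a skin difference of 0.87 ± 0.39 in the same direction.

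In TMM-scaled CPM, summed levels of erythrocyte and lymphocyte markers stood apart between the liver groups, the latter narrowly. The blood cell lists held no called gene, beside 2.84% of all tested genes called in liver. The erythrocyte list of 14 genes summed to 11158, 11787 and 19581 CPM in the albino liver libraries against 5088, 6392 and 8809 CPM in the wild-type ones. These do not overlap on this scale, but with library totals in place of TMM scaling they do. TMM factors were 0.545 to 0.672 in albino and 0.727 to 0.799 in wild-type liver, and a lower factor raises the CPM. The lymphocyte list of 22 genes summed to 280.5, 155 and 179.9 CPM in the albino against 441, 285 and 302 CPM in the wild-type liver libraries. These groups lie just apart, at 280.5 against 285 CPM, and stay apart with library totals. The macrophage and granulocyte list of 21 genes summed to 1973, 1334 and 1152 CPM in the albino against 3446, 2045 and 1725 CPM in the wild-type liver libraries. These overlap on the TMM scale, but with library totals they do not, and the albino libraries are the lower ones. In skin the erythrocyte list summed to 3232, 3235 and 844 CPM in albino and 1053, 582 and 4146 CPM in wild-type libraries, and the groups overlapped. The lymphocyte list summed to 40.6, 33.9 and 13.9 CPM in albino and 82.3, 47.0 and 37.8 CPM in wild-type skin, which overlap too. Median differences in skin and liver were 0.61 and 0.84 for the erythrocyte and -0.99 and -0.73 for the lymphocyte list. For the macrophage and granulocyte list they were -0.39 and -0.44. The median interaction was -0.16 for the erythrocyte, -0.26 for the lymphocyte and 0.00 for the macrophage and granulocyte list. The part of these cells in the liver differences was not tested.

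Pigment genes gave no called interaction, and liver held almost none of the RNA of those called in skin. Tyrosinase (TYR) had 50.7, 33.2 and 42.2 CPM in albino skin against 7.10, 6.46 and 4.59 CPM in wild-type skin, a called skin difference, and 0 counts in all 6 liver libraries, so no interaction can be given. PMEL, the fibril protein of melanosomes, had 570.2, 525 and 438 CPM in albino skin against 54.9, 103 and 104 CPM in wild-type skin, which do not overlap but gave no call, and 0 counts over the albino and 12 over the wild-type liver libraries. OCA2 and MLANA, transporter and melanosome proteins called higher in albino skin, had at most 3 counts over a liver group. MITF, the transcription factor of pigment cells, was measured in both tissues, with differences of 0.19 ± 0.30 in skin and 0.27 ± 0.30 in liver and an interaction of -0.08 ± 0.42 (edgeR, adjusted p = 1.00) whose sign changed with the scaling. Of 28 tested genes of melanin synthesis and the melanosome 16 reached 1 CPM in each tissue, and the median interaction was 0.10. None had a called interaction, beside 0.270% of all tested genes. In skin 3 were called higher and in liver 1, beside 0.573% and 1.33% of all tested genes, and none was called lower.

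Genes of antioxidant defence, the study's question of oxidative stress, gave no called interaction among 37 tested members, beside 0.270% of all tested genes. The list median was 0.04 in skin, 0.10 in liver and 0.00 for the interaction. Of the 37, 6 had an unadjusted interaction p under 0.05 (edgeR), led by GPX3, TXNRD1 and SRXN1, beside 1762 of 18153 tested genes. Superoxide dismutase 1 (SOD1) had an interaction of 0.00 ± 0.39 with a 95% interval of -0.85 to 0.85, and the mitochondrial superoxide dismutase LOC141145813 one of 0.21 ± 0.40 with an interval of -0.67 to 1.08. The catalase gene that dominates in liver, LOC141111968, averaged 5628 ± 789.6 CPM in albino liver and 5455 ± 655 CPM in wild-type liver (SD, n = 3 each), and its interaction was 0.30 ± 0.40 (interval -0.56 to 1.17). A second catalase gene, CAT, was mainly in skin, with 88.8, 53.3 and 33.9 CPM in albino and 73.5, 89.9 and 61.6 CPM in wild-type libraries, which overlap, against under 1 CPM in liver. GPX1 had an interaction of -0.74 ± 0.53, NFE2L2, the regulator of antioxidant genes, one of -0.49 ± 0.33, and heme oxygenase HMOX1 one of 0.86 ± 0.44, none of them called. In liver alone 6 of the 37 were called, 2 higher and 4 lower, beside 1.33% and 1.51% of all tested genes. SOD3, the extracellular superoxide dismutase, was higher by 2.52, while TXNRD1, a thioredoxin reductase, differed by -4.10, MSRB2, a methionine sulfoxide reductase, by -1.95 and SESN2, a sestrin, by -1.53. GPX3, the extracellular glutathione peroxidase, rose to 15.0, 16.8 and 22.0 CPM in albino liver against 3.67, 3.10 and 4.51 CPM in wild-type liver beside a skin difference of 0.04 ± 0.37, and its interaction of -2.22 ± 0.54 was not called (edgeR, adjusted p = 0.151). Sulfiredoxin (SRXN1) fell in albino liver by 1.14 on the log2 scale beside a skin difference of -0.05 ± 0.27.

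Among 168 pathway groups with at least 10 tested genes, medians of the interaction ran from -0.52 to 0.48, beside -0.02 over all tested genes. In 142 groups no gene had a called interaction. Ribosome biogenesis had the second highest median, 0.36, with 53 of its 68 tested genes positive beside 48.7% of all tested genes, a skin median of 0.28 and a liver median of -0.03. Its median interaction stayed between 0.27 and 0.60 over the alternatives. None of its members had a called interaction, beside 0.270% of all tested genes. RCL1, an rRNA processing protein, had the smallest p, with an interaction of 1.73 ± 0.33 (edgeR, adjusted p = 0.0653). GNL3, a nucleolar GTPase, had a skin difference of 0.78 ± 0.22, a liver difference of -0.51 ± 0.22 and an interaction of 1.29 ± 0.31. Arginine biosynthesis had 17 of 25 members positive. By p its leading members were ornithine transcarbamylase of the urea cycle (OTC), which rose in albino skin to 1.61, 1.06 and 1.10 CPM against 0.180, 0.266 and 0.386 CPM in wild-type skin, and the mitochondrial transaminase GOT2 with an interaction of 1.22 ± 0.32, neither with a called interaction.

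Of the gene lists, interferon response had the lowest median interaction, -0.62, with 10 of 50 tested members positive, beside 48.7% of all tested genes. None had a called interaction, beside 0.270% of all tested genes. The list median stood at -0.54 in skin and 0.18 in liver. Its summed level was 353, 411 and 401 CPM in albino skin against 1275, 429 and 405 CPM in wild-type skin, where wild-type skin 1 stands apart, and without that library the median interaction was -0.04. Of the 50 genes 31 carry the same annotation, TRIM25, an antiviral ubiquitin ligase, with a median interaction of -0.60, and the other 19 had one of -0.74. The list held 1 skin call, LOC141134356, lower in albino skin, beside 0.540% of all tested genes called lower there, and no liver call.

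Among pathway groups at the low end, DNA replication had a median interaction of -0.48 with 7 of 42 genes positive. The cell cycle list had one of -0.48 with 8 of 34 positive, and 48.7% of all tested genes were positive. Neither group held a called interaction, beside 0.270% of all tested genes. In liver each had 1 gene called higher and none lower, beside 1.33% and 1.51% of all tested genes. The cell cycle median turned to 0.50 without albino liver 1, while that of DNA replication stayed negative, between -0.61 and -0.17. RRM2, which makes the deoxynucleotides for replication, had 35.7, 24.3 and 24.1 CPM in albino skin against 59.1, 44.3 and 61.5 CPM in wild-type skin, which do not overlap, and 12.7, 4.74 and 3.94 CPM in albino liver against 4.33, 4.35 and 3.07 CPM in wild-type liver, which do. In linoleic acid metabolism, with a median of -0.51 that turned to 0.01 by limma on log2 FPKM with 1 added, the phospholipase A2-like gene LOC141101772 had a called liver difference of -4.60 ± 0.48 and a skin difference of -1.86 ± 0.41 in the same direction. Ribosomal protein genes had 74 of 75 negative interactions with a median of -0.28, and oxidative phosphorylation 37 of 45 with -0.17, beside 51.3% of all tested genes. With library totals in place of TMM scaling the median interaction of all tested genes was 0.23, that of ribosomal proteins -0.01 and that of oxidative phosphorylation 0.10. Without wild-type skin 3 the ribosomal median turned to 0.07. Members of such a list vary together, so their number is no measure of support.

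**Figure D5:**
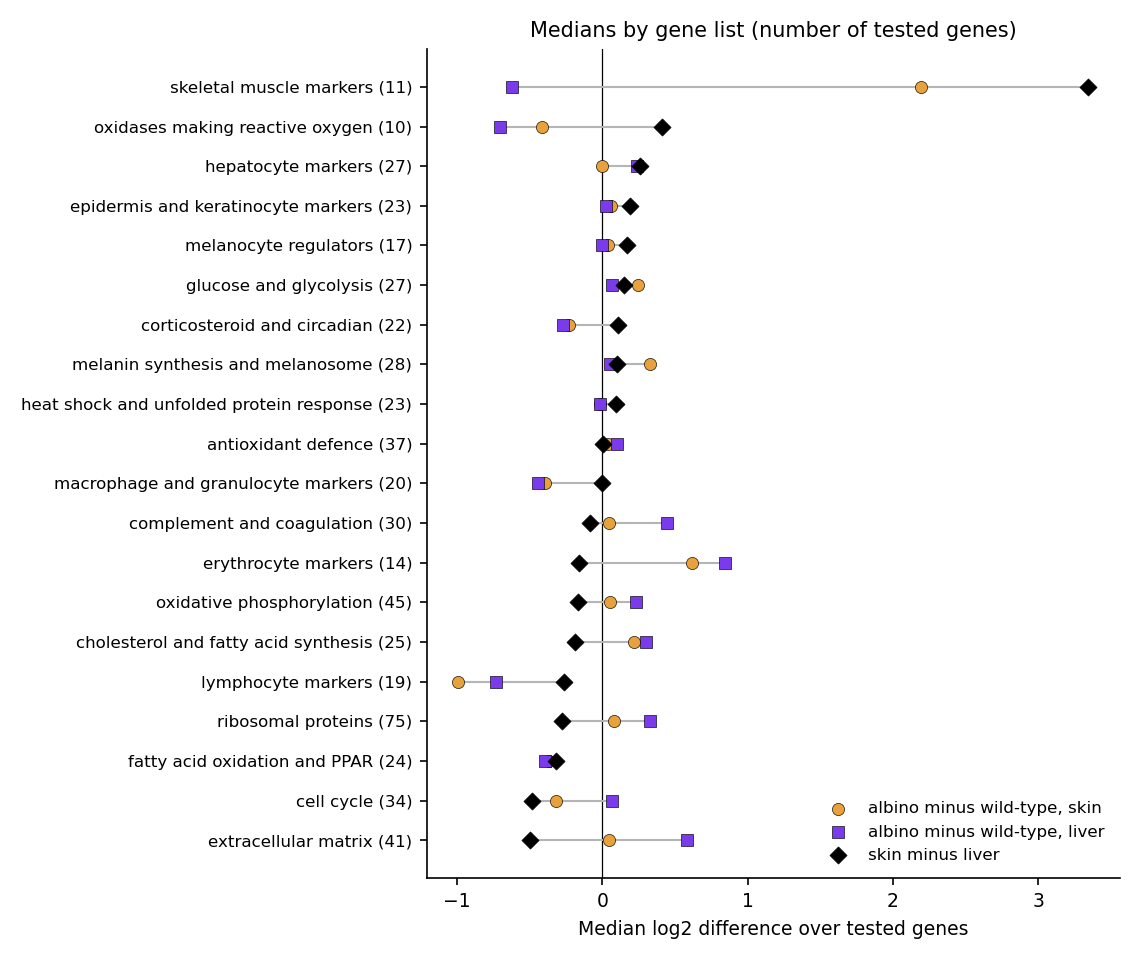
Median log2 difference over the tested genes of 20 lists, all but interferon response (number of genes in parentheses): albino minus wild-type in skin (circles), the same in liver (squares) and the interaction, skin minus liver (diamonds). Skeletal muscle markers stand apart, with medians of 2.20 in skin, -0.62 in liver and 3.34 for the interaction. The interaction median rests on albino skin 2, without which it was 0.18.

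Skeletal muscle markers had the most positive list median, 3.34 over the 11 of 25 genes that were tested, with a skin median of 2.20. None had a called interaction, beside 0.270% of all tested genes, and 2 were called higher in skin, beside 0.573%. All 25 genes summed to 659, 874 and 439 CPM in albino and 252, 392 and 731 CPM in wild-type skin, which overlap. The median interaction rested on 1 library: without albino skin 2 it was 0.18. ATP2A1, the calcium pump of fast muscle, had 0.0230, 29.6 and 0.367 CPM in the albino skin libraries, nearly all of it in albino skin 2, against 0.443, 0.213 and 0.0227 CPM in wild-type skin. MYBPC1, a myosin binding protein, rose in albino skin to 0.944, 5.57 and 0.751 CPM against 0.0164, 0.0710 and 0.205 CPM in wild-type skin, and its interaction of 5.94 ± 1.15 was not called (edgeR, adjusted p = 0.0724).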

How the data were processed

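Total RNA from bullfrog back skin and liver was extracted with TRIzol and made into libraries with the VAHTS Universal V10 RNA-seq kit, per the labels. HISAT2 and HTSeq are named in the submitters' processing notes. Their versions, the genome build, the strand setting and the rule for multiply matching reads remain not given in the sources used here. The authors deposited whole-number read counts per gene, and FPKM values, scaled to gene length and depth, in the same table. All 24636 genes are named there, and no column was left out for lack of a sample.

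Counts of the 12 skin and liver libraries were fitted with edgeR 4.0.16 in R 4.3.3 (group means, robust quasi-likelihood, TMM scaling), after its count filter, which left 18153 genes. The interaction, skin and liver contrasts came from this 1 fit, with Benjamini-Hochberg adjustment over all tested genes at 0.05. The code was run on simulated counts, drawn as independent libraries from the fitted means and dispersions. Libraries that share an animal were not simulated, so that run is no support for the calls. CPM use TMM-scaled library sizes. Where a group had 0 counts, a fold is given as a bound against a floor of 3 counts; intervals at 95% and floors cover counting error only. DESeq2 1.42.0, limma 3.58.1 on log2 FPKM plus 0.1 or 1, other scalings and filters, all 18 libraries in 1 fit, leaving out each library, summing wild-type liver 2 and 3, and a replicate block were the alternatives.

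Called genes were named by rank: the 8 most positive and 8 most negative interactions at a mean of 1 CPM or more in each tissue, 4 each at that level in 1 tissue only, those called in both tissues, pigment and antioxidant genes, and leading members by p of lists and pathway groups. The remaining called genes, PPARG, LPL, PDK4, RBP4, GPX3, SRXN1, MYBPC1 and other examples were chosen after their values were seen. The members and lists were chosen with earlier results of these data known.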

Additional observations from a re-analysis of the deposited data

Results flagged for a closer look

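A closer look is asked for each of the 49 genes whose albino minus wild-type difference was not the same in skin and liver by the interaction test (edgeR, adjusted p under 0.05). All values are interactions on the log2 scale, skin minus liver.

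Among genes lower in albino liver with no skin call, the interaction was 7.53 for LOC141116717, 7.16 for LOC141110916, 5.55 for PRRT3, 5.11 for LOC141107696, 5.09 for TMEM72, 4.69 for LOC141106129, 4.39 for PDE6C and 3.28 for LOC141112132. It was 2.79 for EPS8L1, 2.66 for LOC141140313, 2.57 for CSRP2, 2.48 for LOC141132936, 2.40 for BMPR2, 2.38 for DAAM1, 2.30 for MKNK1 and 2.18 for SLC26A5 in the rest of these 16 genes. In the 4 genes higher in albino skin with no liver call it was 4.66 for APOC2, 4.57 for LOC141107597, 4.24 for APOH and 4.15 for SLC27A2.

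Among genes higher in albino liver with no skin call, the largest sizes were -11.95 for LOC141144076, -10.90 for DNAH10, -10.69 for LOC141144176, -8.28 for LOC141145729, -7.44 for LOC141117350, -6.95 for CACNB1 and -6.54 for LOC141132848. Next came -5.44 for FAM163B, -4.85 for LRAT, -4.55 for LOC141133562, -4.51 for GAS2L1, -4.38 for INHBA, -3.43 for CYP26B1 and -3.36 for TMEM63C. The smallest of these 21 were -3.35 for LOC141140610, -2.98 for PTPRR, -2.87 for P2RY6, -2.80 for LOC141131687, -2.76 for CXCL14, -2.13 for LAMA1 and -1.54 for THSD4. In the 5 genes lower in albino skin with no liver call the interaction was -4.52 for LOC141147649, -3.76 for GDA, -3.31 for FBN2, -2.56 for HHIP and -1.91 for LOC141132375. In the 3 genes called in both tissues it was -6.16 for LOC141114312, -4.14 for HSD11B2 and -3.12 for SI. Fitted values of CACNB1, LOC141116717, DNAH10, LOC141144076, LOC141144176 and LOC141114312, which have 0 to 3 counts in a liver group, depend on the prior count and are no measure of size. Skin differences of LOC141107696, APOH and APOC2 rest on 1, 4 and 5 counts over the wild-type skin libraries, so their interaction sizes are uncertain too. The same holds for TMEM72 and PRRT3, with 4 and 6 counts over the albino liver libraries, and FAM163B, with 7 over the wild-type liver libraries.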

How the results depend on the processing

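Of 1173 refits of single genes among the 49 called ones, 733 kept the call, 436 lost it and 4 reversed. Interaction calls numbered 367 by DESeq2, 158 with all 18 libraries in 1 fit, 155 and 214 by limma on log2 FPKM plus 0.1 and plus 1, 15 with wild-type liver 2 and 3 summed, and 10 to 78 with 1 library left out, against 49. Under the other scalings and filters there were 33 to 72. DESeq2 kept all of the 49 calls, limma 34 and 29. Skin calls, 202 in the report, numbered 1038, 680, 483, 557 and 70 in the same order, and 47 to 190 with 1 library left out. Liver calls, 516 in the report, numbered 1386 by DESeq2, 1097 with all 18 libraries, 134 with the 2 libraries summed, and 103 to 631 with 1 library left out. The same-sign share of liver calls in skin was 72.9% to 81.7% and that of skin calls in liver 79.8% to 93.9% with 1 library left out, and the last was 93.6% with the 2 libraries summed. Fewer libraries lower the power, and the cause of the other changes was not tested.

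Same-numbered skin and liver libraries had residual correlations of 0.303, 0.226 and 0.220 among albino libraries, against 0.382, 0.223 and 0.0541 among wild-type ones. The lowest is that of wild-type skin 3 and the library labelled wild-type liver 3, which shared 59.5% of on/off gene states. The labels do not say that equal numbers are the same animal, so the main fit took no pairs. If they are, the main fit ignores that pairing. As a hint from the data, 5 of the 6 same-numbered pairs shared 97.3% to 100% of on/off gene states, against 62.2% to 86.5% for albino skin and liver libraries of unlike number. 5 of 6 skin libraries correlated best with the liver library of their own number, and wild-type skin 2 with the library labelled wild-type liver 3 (0.262). A replicate block gave 39 interaction calls, 28 of them among the 49. The block with that library left out, chosen after the data were seen, gave 15, of which 10 were among the 49.

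Reversed interactions by limma on log2 FPKM plus 1 were CACNB1 (0.14), LOC141114312 (0.28), EPS8L1 (-0.20) and LOC141116717 (-0.24), for reasons not tested. MITF turned to 0.18 with library totals, 0.23 and 0.12 by limma with 0.1 and 1 added, and lay between -0.27 and 0.37 without 1 library. SOD1, at 0.00, turned to -0.0280 by DESeq2, -0.0301 by RLE scaling, -0.0123 with the filter in each tissue, -0.0088 with the 2 libraries summed, and lay between -0.16 and 0.37 without 1 library. CAT, at -0.17, lay between -0.59 and 0.90 without 1 library. Of 24 genes without a called interaction that were refitted, part of those named, DESeq2 called 11, the fit of all 18 libraries 6 and limma 6 under each added value. Counts of 3 or fewer in a group limit any ratio to its counting interval.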
